A study of Rattus rattus with 23 samples.

Results

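Nasal respiratory epithelium of rats that had inhaled hydrogen sulfide (H2S) was compared between 6 h and 3 h after the initial exposure, with no air-breathing animal in the comparison. The arrays were chosen by their titles alone: animals 3, 4, 5 and 6 at 3 h and animals 8, 9 and 10 at 6 h, which are 7 of the 23 arrays analysed. All 7 animals were adult male Sprague-Dawley rats with no genetic modification named. They are 60 days old by the sample labels and 10 weeks old by the description of the design. Each breathed 200 ppm H2S through a nose-only system, in exposures of 3 h per day. The treatment label names 1 day for 6 of the 7 animals and 5 days for animal 6, whose title nevertheless gives 3 h, so values are also given without that animal. The sources do not say whether the times count from the beginning or the end of the exposure, which itself lasted 3 h. Epithelium at the site of damage was cut out by laser capture microdissection, in which a laser lifts chosen cells from a frozen section. The captured RNA was amplified and hybridised to an Affymetrix Rat 230 2.0 array, 1 array per animal. The 8 exposed arrays at 24 h and 144 h served only to estimate the spread, and 24 h values appear as context. At 24 h the treatment label names 1 day for animals 11, 12 and 13 and 5 days for animal 14. At 144 h it names 5 days for animals 23, 24, 25 and 26.

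Cells hit by a reactive or toxic gas switch on several sets of genes in waves. Immediate-early genes such as those of the AP-1 and ATF transcription factors are read within minutes from factors already present, and their messages are short-lived. Heat shock factor 1 drives chaperones when proteins misfold, NRF2 drives antioxidant and glutathione genes when reactive thiols are modified, and MTF1 drives metallothioneins. H2S blocks cytochrome c oxidase of the respiratory chain and is itself cleared by mitochondrial sulfide oxidation. The nasal respiratory epithelium is made of ciliated, secretory and basal cells resting on stroma over bone and cartilage.

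The 7 arrays had median signals of 137 to 183, and the log2 array median was 7.39 ± 0.157 (SD, n = 4) at 3 h and 7.31 ± 0.208 (SD, n = 3) at 6 h (exact permutation test, two-sided, p = 0.571). With 4 against 3 animals this test cannot give a p below 0.0571. Pairs of arrays correlated over probe sets with a median r of 0.864 within 3 h, 0.825 within 6 h and 0.837 between the times, so pairs across the times correlated about as well as pairs within one. RNA integrity numbers were given for 4 of the 7 animals: 7.2 and 5.3 at 3 h, and 5.8 and 6.4 at 6 h. The epithelial label was borne out by the airway secretory gene Bpifa1, with signals of 31641 to 113059, and by the ciliated cell regulator Foxj1, with signals of 278 to 1672. The olfactory markers Omp and Cnga2 did not pass the filter on low values, with highest signals of 131 and 177. Of the 15 olfactory markers on the array, however, 8 passed it. Among these, Cyp2a3 had signals of 2406 to 7503, Gap43 254 to 1373, Gnal 41.9 to 227 and Tubb3 5.27 to 264. The captures also held tissue beyond the epithelium: the bone matrix gene Bglap had signals of 7996 to 48174.

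Out of 18215 probe sets tested, limma called 3 lower (0.0165% of those tested) and 1 higher (0.00549%) at 6 h at an adjusted p under 0.05, in all 0.022%. Counted over genes, 3 of 10662 (0.0281%) had their representing probe set called. An unadjusted p under 0.05 was reached by 1525 probe sets (8.37%). The test, fitted on log2(signal + 16), had a median standard error of 0.368, so the 4 calls are large differences. Among 10662 genes, each represented by its probe set with the highest mean, 5764 (54.1%) had a lower and 4898 a higher mean at 6 h, with a median difference of -0.042. In 470 genes (4.41%) every 6 h animal was below every 3 h animal, and in 310 (2.91%) every 6 h animal was above. These shares are the background against which the gene lists below are read. With 1 sample per animal, the p-values measure the spread between animals.

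Atf3 fell and had the smallest p of all probe sets. It encodes a stress-induced transcription factor of the ATF family that pairs with AP-1 proteins. Its signal was 2335, 1837, 2697 and 11974 in the 3 h animals and 335, 288 and 328 in the 6 h animals. The groups did not overlap, the 6 h animals were almost equal, and animal 6 was far above the others at 3 h. The difference was -3.38 ± 0.478 (SE) on the log2 scale, a 10.4-fold lower level (limma, adjusted p = 0.0421). Without animal 6 it was -2.78 with an adjusted p of 0.00151. The call was lost when animal 3 (adjusted p = 0.0974), animal 5 (0.0534), animal 8 (0.0848) or animal 10 (0.189) was left out, with no filter on low values (0.0726), and when only the 7 arrays were fitted (0.282); over all alternatives the adjusted p ran from 0.00151 to 0.282. At 24 h the signals were 329, 354, 262 and 473, the range already reached at 6 h.

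The AP-1 and ATF list held 11 measured genes, of which 9 had a lower mean at 6 h and 3 were lower without overlap (27.3%, against 4.41% of all genes). The median difference was -0.61, and -0.30 without animal 6. There 3 members were lower without overlap (27.3%, against 5.8% of all genes then). Atf3 was the only member called. Fosl1, an inducible FOS-family partner of JUN, gave signals of 380, 234, 683 and 1766 at 3 h and 156, 173 and 131 at 6 h. Its groups did not overlap, and its difference was -1.82 ± 0.518 (SE; limma, adjusted p = 0.4). Fosb had signals of 482, 97.4, 652 and 1413 at 3 h and 99, 93.5 and 157 at 6 h, so animal 4 already lay at the 6 h level (-1.89; adjusted p = 0.431). Fos itself ran from 1156 to 5331 at 3 h and from 493 to 1567 at 6 h (-1.52; adjusted p = 0.5). Maff, a small MAF protein that pairs with stress factors, was lower without overlap (-0.85; adjusted p = 0.519). The partners of these proteins had smaller differences, with overlap: Jun had -0.42, with -0.39 and -0.36 on its other probe sets, and Junb had 0.16. Both changed sign in some of the alternative settings. Fosl2 did not pass the filter on low values.

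**Figure D1:**
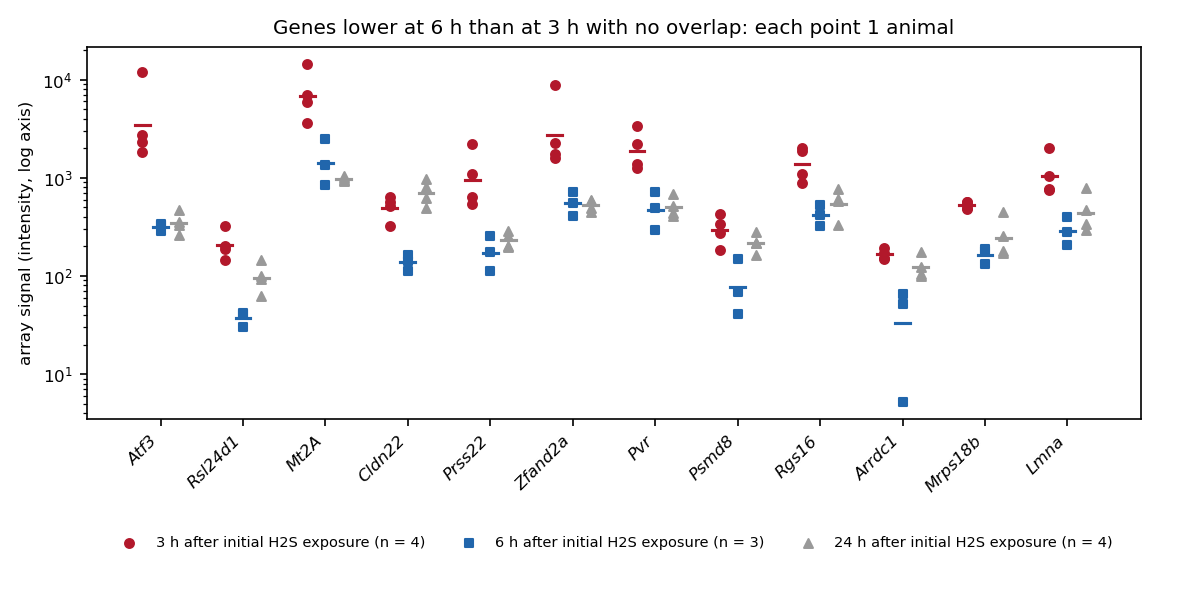
Array signal (log axis) of the 12 genes with the smallest p among those lower at 6 h without overlap. Each point is 1 animal at 3 h (red circles), 6 h (blue squares) or 24 h (grey triangles), and each bar is the mean taken on the log2(signal + 16) scale; for Atf3 the 6 h animals sit between 288 and 335, below all 3 h animals.

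Other immediate-early genes respond to growth signals and stress alike. Of 29 measured, 25 had a lower mean and 5 were lower without overlap (17.2%), with a median of -0.45 and no call. Egr1, a zinc-finger factor induced by growth signals, had signals of 3473, 5920, 5884 and 7955 at 3 h and 2711, 2875 and 3285 at 6 h. Its difference was -0.91 ± 0.303 (SE; limma, adjusted p = 0.434), and the 6 h animals lay just below the lowest 3 h animal. Gadd45b, a stress-kinase regulator, was lower without overlap (-1.24), as were Ccn1, a secreted matrix protein (-0.81), and Csrnp1, an AXIN-induced nuclear protein (-0.75). The fifth, named after its value was seen, was the small GTPase gene Rhob (-0.67). Myc (-0.86) and Klf6 (-0.84) overlapped between the times, and 1 of the 3 Klf6 probe sets was higher at 6 h (0.21). Other genes shut such signals off. Of 19 feedback inhibitors and mRNA decay factors, 12 had a lower mean and 1 was lower without overlap (5.26%), close to the background of 4.41%, with a median of -0.26 that turned to 0.05 without animal 8. That gene was Dusp5, an ERK phosphatase, with signals of 278, 154, 267 and 293 at 3 h and 145, 128 and 137 at 6 h. Dusp1 and Zfp36 had differences of 0.18 and -0.39 and changed sign when single animals were left out.

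Of the 21 heat shock proteins and co-chaperones measured, 20 had a lower mean at 6 h, and Hspa4 had a difference of 0.18. The median was -0.64, 3 members were lower without overlap (14.3%) and none was called. Zfand2a, an arsenite-inducible zinc-finger protein linked to the proteasome, had signals of 1594, 1751, 2251 and 8728 at 3 h and 554, 411 and 719 at 6 h. Every 6 h animal was below every 3 h animal, and the difference was -2.28 ± 0.447 (SE; limma, adjusted p = 0.182). Hspa1a, the inducible HSP70, had signals of 4828, 2514, 8963 and 25000 at 3 h and 1406, 700 and 3153 at 6 h. Animal 10 at 6 h was above animal 4 at 3 h, so the groups overlapped (-2.29; adjusted p = 0.404). Hspb1, the small chaperone HSP27, ran from 7714 to 50433 at 3 h and from 1689 to 11487 at 6 h (-1.92; adjusted p = 0.478). Hsph1, a nucleotide exchange factor for HSP70, was lower without overlap (-1.10), as was, named after its value was seen, the HSP70-HSP90 adaptor Stip1 (-0.82). The HSP40 co-chaperones Dnaja1 (-1.11) and Dnajb1 (-0.97) overlapped. Another Dnajb1 probe set had -1.81 (adjusted p = 0.276), and the brighter one had 0.07 in the fits limited to arrays with an RNA integrity number. Animal 6 had the highest level of this list, 2.77 against 1.27 to 1.90 in the other 3 h animals, where a list level is the average log2 value of its members less that of every gene tested on the same array. Without animal 6 the list median was -0.37, and 18 of the 21 members had a lower mean.

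Of 26 NRF2 targets and glutathione genes, 23 had a lower mean and 3 were lower without overlap (11.5%), with a median of -0.42 and no call. Hmox1, the heme-degrading oxygenase, had signals of 1283, 2255, 2245 and 7605 at 3 h and 715, 294 and 1259 at 6 h. The highest 6 h animal was just below the lowest 3 h animal, and the difference was -2.01 ± 0.59 (SE; limma, adjusted p = 0.404). Nqo1, a quinone reductase, was lower without overlap, with 7950 to 22085 at 3 h and 5546 to 6365 at 6 h (-1.19). Gss, which completes glutathione, was the third such gene (-0.89). The aldo-keto reductase Akr1b8 (-1.38), the peroxidase Gpx2 (-1.15), the sulfiredoxin Srxn1 (-0.82) and the glutathione-synthesis subunit Gclm (-0.65) overlapped. Txnrd1, thioredoxin reductase, had -0.72 on its brightest probe set and -1.27 on another, and changed sign in the fits limited to arrays with an RNA integrity number. The cystine carrier subunit Slc7a11 did not go the same way: its signals were 287, 274, 598 and 422 at 3 h and 660, 193 and 921 at 6 h (0.38; adjusted p = 0.917), and this turned negative without animal 10. Without animal 6 the list median was -0.28 and 18 of the 26 members had a lower mean.

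Metallothioneins bind zinc and are induced by metals and oxidants. Mt2A had signals of 3593, 5949, 6909 and 14434 at 3 h and 2468, 1344 and 850 at 6 h, and 936 to 1030 at 24 h. The groups did not overlap, and the difference was -2.25 ± 0.413 (SE; limma, adjusted p = 0.182). Mt1 was lower on average but overlapped, with 308, 773, 673 and 921 against 371, 241 and 173 (-1.26; adjusted p = 0.46). Their regulator Mtf1 had a difference of 0.07, which changed sign when single animals were left out and was -0.13 and -0.86 on its other probe sets, and the zinc importer Slc39a14 had a higher mean with overlap (0.97).

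Genes of the integrated stress and unfolded protein responses lay nearer to the background. Of 34 measured, 28 had a lower mean, 3 were lower without overlap (8.82%) and 1 was higher, with a median of -0.25 and no call. Atf4, the factor whose translation rises when eIF2alpha is phosphorylated, had signals of 6050, 5210, 5740 and 7432 at 3 h and 4393, 3160 and 3202 at 6 h (-0.77; adjusted p = 0.515). Sesn2, a target of ATF4 and NRF2, was also lower without overlap (-0.66). Chosen after their values were seen, the amino acid carrier Slc7a5 was the third (-0.75), and the chaperone Hsp90b1 was the gene higher without overlap (0.71). Trib3, a pseudokinase induced by ATF4, overlapped (-0.78). Ddit3, which encodes CHOP, had a difference of -0.26 that turned positive without animal 6.

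Genes of receptors, plasminogen activation and matrix remodelling act in wound repair. Of 30 measured, 22 had a lower mean, 8 were lower without overlap (26.7%) and 1, the growth factor Bmp2 (0.75, named after its value was seen), was higher; the median was -0.48 and none was called. Without animal 6, 8 members were lower without overlap (26.7%, against 5.8% of all genes then), and the median was -0.29. Tnfrsf12a, the receptor for the cytokine TWEAK, had signals of 4273, 4566, 6921 and 17646 at 3 h and 2600, 483 and 1934 at 6 h (-2.36; adjusted p = 0.348). Pvr, the adhesion receptor CD155 recognised by natural killer cells, had 1256, 1366, 2232 and 3329 against 488, 294 and 710 (-1.98; adjusted p = 0.182). Neither receptor overlapped between the times. Adora2b, a low-affinity adenosine receptor, had 1031, 836, 1637 and 1253 at 3 h and 424, 406 and 399 at 6 h, with the 6 h animals nearly equal (-1.46; adjusted p = 0.348). The protease genes Plat, tissue plasminogen activator (-1.20), and Mmp3, stromelysin (-1.93), were lower without overlap as well. Serpinb2, a plasminogen activator inhibitor, had no such order. Its signals were 1184, 68.6, 2012 and 3275 at 3 h and 1348, 23.6 and 3715 at 6 h. The lowest value of each time was in the animals richest in leukocyte markers, 4 and 9. The relation of Serpinb2 to the leukocyte content was not tested. The growth factors Hbegf, Areg and Ereg and the receptor Plaur did not pass the filter on low values, with highest signals of 116, 110, 159 and 209.

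Repair keratins and squamous genes split. Of 9 measured, 6 had a lower mean and 2 were lower without overlap (22.2%), and the list median of -0.37 turned to 0.33 without animal 9. Sfn, the epithelial 14-3-3 protein, had 1061, 1532, 1092 and 5575 at 3 h and 352, 144 and 304 at 6 h (-2.75; adjusted p = 0.404). Krt17, a keratin of wounded epithelium, had 1108, 1341, 3311 and 14524 against 732, 398 and 1098, with animal 6 far above the rest and almost no gap between the groups (-2.06; adjusted p = 0.638). The cross-linking enzyme Tgm1 had 130 to 219 at 3 h but 786, 84.6 and 821 at 6 h (1.11).

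Further genes had no overlap. Prss22, a secreted airway serine protease, had signals of 540, 1096, 640 and 2194 at 3 h and 113, 254 and 175 at 6 h (-2.37; adjusted p = 0.182). Cldn22, a claudin of tight junctions, had 569, 325, 510 and 638 against 112, 162 and 142, and 494 to 973 at 24 h, a range that meets that of 3 h (-1.74; adjusted p = 0.182). Rgs16, which quenches G-protein signals, had 1093, 889, 2007 and 1853 against 413, 325 and 533 (-1.69; adjusted p = 0.233). The glucose transporter Slc2a1, of the glycolysis and hypoxia list, was likewise lower without overlap (-1.32; adjusted p = 0.284).

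The other probe sets that fell were dim at 6 h. Rsl24d1, a factor that joins the maturing large ribosomal subunit, had signals of 190, 325, 146 and 202 at 3 h and 29.9, 41.1 and 42.4 at 6 h, without overlap. It fell by 2.06 ± 0.308 (SE; limma, adjusted p = 0.0421). The size of a difference at such low signals depends on the constant added before the logarithm: it was -2.44 with 1 added and -1.42 with 64. Fam81a, a gene of little-known function, had 502, 377, 361 and 371 against 43.3, 16.9 and 64.8 on the probe set called. That probe set fell by 2.94 ± 0.444 (SE; limma, adjusted p = 0.0421), and by 2.16 with 64 added, where it was no longer called. Its 2 other probe sets had differences of -1.46 and -1.48 and were not called, and at 24 h the called one read 1023, 210, 659 and 625. Both calls were lost without animal 3, 4, 5, 6, 8 or 10, each left out alone, and held without animal 9. Over all alternatives the adjusted p ran from 0.0342 to 0.991 for Rsl24d1 and from 0.028 to 0.196 for Fam81a.

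Ribosome assembly and proteasome genes had small differences that ran mostly one way. Of 32 ribosome biogenesis genes, 29 had a lower mean and 5 were lower without overlap (15.6%), with a median of -0.35. Their list level was 0.66 to 1.00 at 3 h and 0.39 to 0.52 at 6 h, without overlap. Rrp12 (-0.90) and Wdr12 (-0.72), both needed for pre-ribosome maturation, were lower without overlap, and so were Grwd1 (-0.54), Nop56 (-0.44) and Nop58 (-0.35), named after their values were seen, while Heatr1 (-0.74) and Mrto4 (-0.57, and 0.09 on another probe set) overlapped. Of 30 proteasome subunits, 28 had a lower mean and 3 were lower without overlap (10.0%), with a median of -0.29. Psmd8, a lid subunit, had the largest difference, with signals of 425, 274, 183 and 342 at 3 h and 148, 41 and 69.3 at 6 h (-1.74; adjusted p = 0.182). Psmd12 (-0.58) and Psmd3 (-0.46) were the others without overlap. Neither list had a called member. The mitochondrial ribosome gene Mrps18b had 485 to 572 at 3 h and 131 to 187 at 6 h (-1.60), and the arrestin-domain gene Arrdc1 150 to 191 against 5.23 to 66 (-1.89). Lmna, which encodes the lamins A and C, was lower without overlap on its brightest probe set (-1.83), while another probe set had a difference of 0.32.

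Ciliated cells carry the motile cilia that clear mucus. All 29 ciliated cell markers measured had a lower mean at 6 h, 13 of them without overlap (44.8%), with a median of -1.28 and no call. Tekt4, a tektin of the axoneme, had 912, 1356, 1606 and 2318 at 3 h and 588, 669 and 148 at 6 h (-1.86; adjusted p = 0.362). Rsph9, a radial spoke protein, had 848, 1185, 1559 and 2148 against 787, 508 and 131 (-1.79; adjusted p = 0.452), and Dnah1, an inner-arm dynein, ran from 1762 to 5527 against 349 to 1642 (-1.60). Foxj1, which switches on the cilium programme, overlapped, with 327, 700, 986 and 1672 against 465, 732 and 278 (-0.76; adjusted p = 0.728). The ciliated list level was 0.29 to 1.54 at 3 h, -1.12 to 0.16 at 6 h and -0.74 to 1.39 at 24 h. The summed signal of the list was 35717 to 106864 at 3 h and 12425 to 36122 at 6 h, and animal 10 was lowest. The median was -1.07 without animal 6 and -0.81 without animal 10. Without animal 6, 13 members were lower without overlap (44.8%, against 5.8% of all genes then). In such bulk captures, fewer cells of a type and less RNA per cell cannot be told apart. The part of cell composition in the stress gene differences was not tested.

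**Figure D2:**
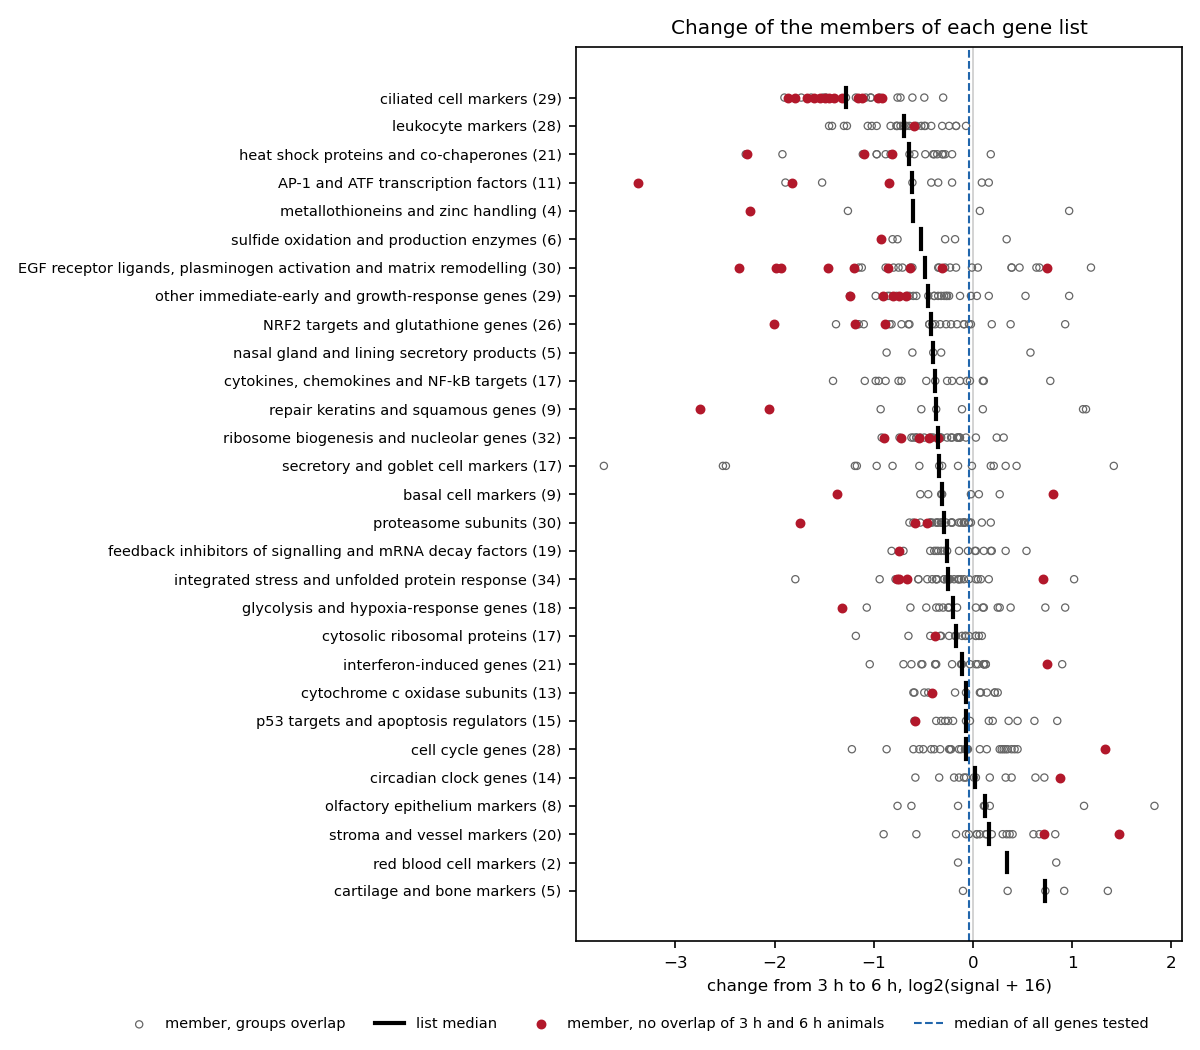
Difference between 6 h and 3 h, in log2(signal + 16), of each measured member of the 29 gene lists (number measured in brackets). Filled points are members whose 3 h and 6 h animals do not overlap, thick bars are list medians and the dashed line is the median of all genes (-0.042); ciliated markers lie farthest to the left as a list, and Atf3 is the leftmost AP-1 and ATF point.

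Secretory markers split within the 6 h group. Bpifb1, a secreted airway defence protein, had signals of 1653, 1695, 1249 and 3444 at 3 h, while at 6 h animals 8 and 10 had 15.2 and 50.6 and animal 9 had 1394 (-3.72 ± 0.944, SE; limma, adjusted p = 0.348). The mucin Muc5b followed the same order, with 4055 to 17036 at 3 h and 380, 6404 and 1051 at 6 h (-2.52). Muc5ac had 1047, 329, 230 and 1355 against 4.02, 195 and 265 (-2.49). In all, 12 of 17 secretory markers had a lower mean and none was lower without overlap, with a median of -0.34. Without animal 9, Bpifb1 had a difference of -5.37 and passed the test (adjusted p = 0.00581), on the basis of 2 animals at 6 h; over all alternatives its adjusted p ran from 0.00253 to 0.748. The club cell marker Scgb1a1 did not pass the filter on low values.

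Leukocyte markers differed between animals of the same time. All 28 measured had a lower mean at 6 h (median -0.69), yet only 1 was lower without overlap (3.57%, against 4.41% of all genes), the macrophage receptor Cd163 (-0.59), named after its value was seen. Their level was 1.46 in animal 4 against 0.09 to 0.17 in the other 3 h animals, and 1.22 in animal 9 against -0.85 and -0.98 in animals 8 and 10. Cd3g, a subunit of the T-cell receptor complex, had 794, 1668, 590 and 850 at 3 h and 144, 2054 and 142 at 6 h (-1.30; adjusted p = 0.658). The macrophage growth factor receptor Csf1r had 376, 991, 492 and 570 against 355, 480 and 203 (-0.77). The list median was -1.30 without animal 9, where 16 members were lower without overlap (57.1%, against 13.2% of all genes), and -0.29 without animal 10. Without animal 4 it was -0.41, and 1 member was lower without overlap (3.57%, against 6.87% of all genes then). Of 17 cytokine and NF-kB target genes, 14 had a lower mean and none was lower without overlap (median -0.38). Without animal 9, 9 of them were lower without overlap (52.9%, against 13.2% of all genes then). Without animal 4, only 1 of them was (5.88%, against 6.87% of all genes then). The median of these 17 genes was -0.80 without animal 9 and -0.09 without animal 8. The neutrophil attractant Cxcl1 had 246, 55.3, 367 and 361 at 3 h and 135, 9.23 and 150 at 6 h (-1.41), and was lowest at each time in animals 4 and 9. In the fits limited to arrays with an RNA integrity number its difference was 0.21, and 0.23 with that number as a covariate. Il1b, the inflammatory cytokine interleukin 1 beta, had 477, 1136, 1065 and 591 against 418, 576 and 373 (-0.75). Their relation to the leukocyte content was not tested. Cxcl2 and Il6 did not pass the filter on low values.

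**Figure D3:**
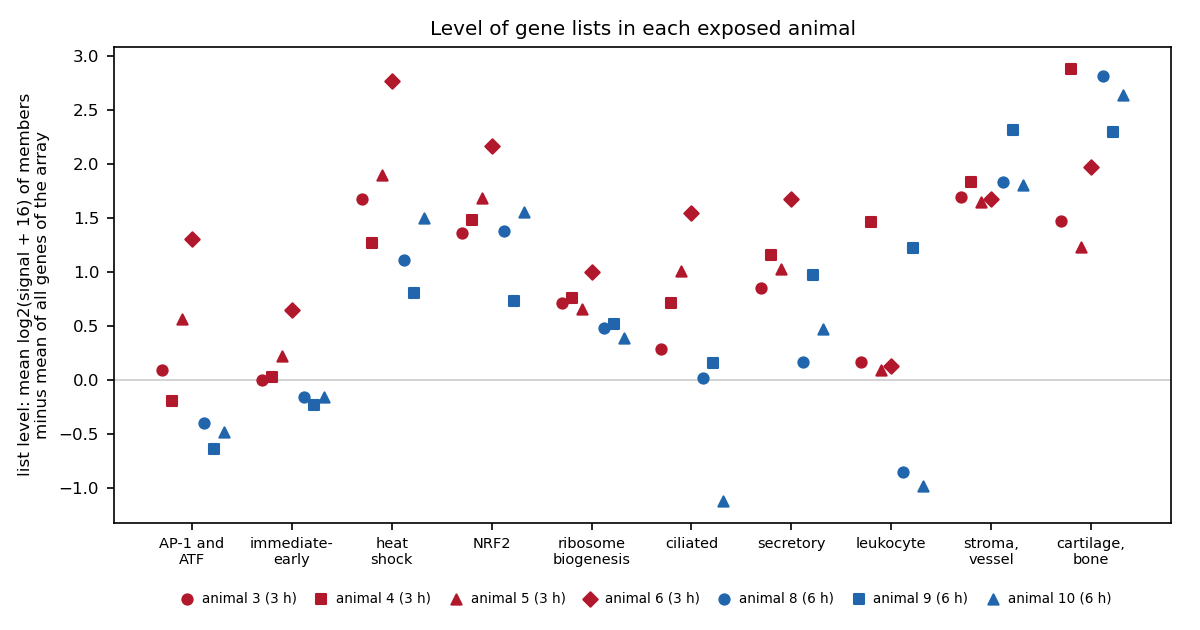
Level of 10 gene lists in each of the 7 animals (average log2(signal + 16) of its members less that of every gene tested; red 3 h, blue 6 h, 1 symbol per animal). The AP-1 and ATF, immediate-early, ribosome biogenesis and ciliated levels do not overlap between the times, whereas the leukocyte level is high in animals 4 (1.46) and 9 (1.22).

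Map2k6 was the only probe set called higher. It encodes MKK6, the kinase that activates p38. Its signal was 105, 132, 141 and 70.1 at 3 h and 353, 712 and 558 at 6 h, without overlap, and 258 to 508 at 24 h. It rose by 2.11 ± 0.327 (SE), a 4.31-fold higher level (limma, adjusted p = 0.0439). Without animal 6 the difference was 1.93 with an adjusted p of 0.129. The call was also lost without animal 3, 4, 5, 8 or 10, each left out alone, and held without animal 9 (0.0473); over all alternatives the adjusted p ran from 0.0323 to 0.282.

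Of the other genes higher at 6 h without overlap, none passed the test. Maob, a monoamine oxidase, had 123, 136, 194 and 179 at 3 h and 1425, 541 and 1807 at 6 h (2.73; adjusted p = 0.182). Hey1, a NOTCH-induced repressor, had 1779, 1219, 1796 and 878 against 7014, 2821 and 9784 (2.08; adjusted p = 0.233). In both genes animals 8 and 10 stood above animal 9.

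The same order of the 6 h animals was seen in Gucy1b1, a subunit of the nitric oxide receptor, with 57.1 to 248 at 3 h and 3090, 649 and 3833 at 6 h (3.84; adjusted p = 0.276). Scrn1, a cytosolic secernin, had 182 to 410 against 4494, 629 and 3977 (3.07; adjusted p = 0.294), and 1.75 on another probe set. Pcdh9, a protocadherin, had 50.1 to 139 against 719, 283 and 1115 (2.59), and S100a3, a calcium-binding protein, 187 to 526 against 1299, 720 and 2066 (2.15). Without animal 9, Maob (3.24; adjusted p = 0.0366), Hey1 (2.59; 0.0366) and Scrn1 (3.98; 0.0438) passed the test, again with 2 animals at 6 h. Over all alternatives the adjusted p ran from 0.035 to 0.618 for Maob, 0.0366 to 0.67 for Hey1 and 0.0438 to 0.747 for Scrn1. Animal 9 also differed in the Gapdh 3'/5' log2 ratio, a measure of RNA degradation and amplification: it was 1.26, against 3.84 and 3.11 in animals 8 and 10 and 3.08, 1.83, 2.43 and 2.74 at 3 h. The difference of this ratio between the times was 0.217, and 0.955 without animal 9. The beta-actin 3'/5' log2 ratio did not set animal 9 apart. It was 5.47 in animal 9, 6.88 and 4.95 in animals 8 and 10, and 4.84 to 7.05 at 3 h. Its difference between the times was -0.00818, and 0.139 without animal 9. The part of either ratio in the calls gained was not tested.

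Enpp2, the secreted enzyme autotaxin that makes lysophosphatidic acid, was more even, with 1566, 3051, 820 and 673 at 3 h and 12028, 9007 and 7748 at 6 h (2.87; adjusted p = 0.276). Kctd12, a subunit that tunes GABA-B receptors, had 3499, 6009, 3413 and 3214 against 16959, 10267 and 13725 (1.77). Pxdn, which cross-links basement membrane collagen, had 812 to 1107 against 2272 to 3050 (1.42, and 0.68 on another probe set). Cadps, a priming factor of dense-core vesicles, had the smallest difference of the leading genes (1.12), and Calb1, a calcium buffer, was near the floor at 3 h, with 3.24 to 12.9 against 80 to 223 (2.62).

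**Figure D4:**
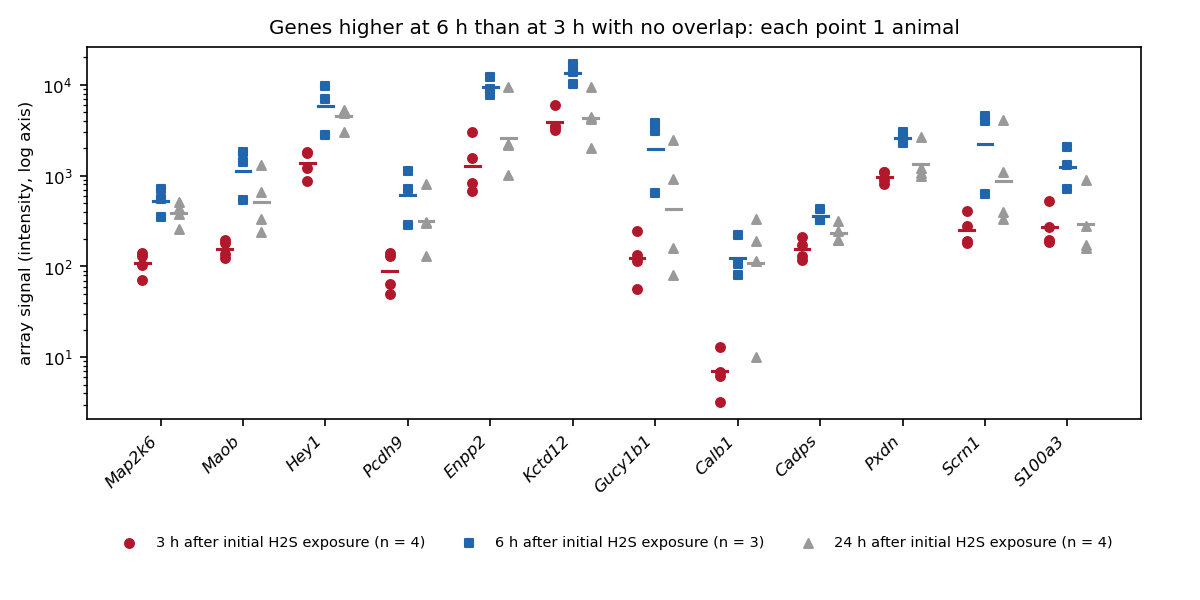
Array signal (log axis) of the 12 genes with the smallest p among those higher at 6 h without overlap. Points are single animals at 3 h (red circles), 6 h (blue squares) and 24 h (grey triangles), and bars are means taken on the log2(signal + 16) scale; Map2k6, the only one called, has 353 to 712 at 6 h and at most 141 at 3 h.

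Markers of tissue under the epithelium were higher in part of the same animals. The cartilage and bone level was 2.81, 2.29 and 2.64 at 6 h and 1.47, 2.88, 1.23 and 1.97 at 3 h, and the summed signal was 41811 to 92105 against 21363 to 74731. Of the 10 such genes on the array, Col2a1, Comp, Col9a1, Matn1 and Cnmd did not pass the filter on low values. Their median signals in the 7 animals were 145, 105, 65.6, 52.2 and 107, and their highest 596, 170, 620, 144 and 280. Of the 5 such genes measured, 4 had a higher mean, with a median difference of 0.73 and no member without overlap. The median was 0.35 without animal 9 and 1.22 without animal 4. Col11a1, a fibrillar collagen of cartilage, had 4501, 9387, 4542 and 3328 at 3 h and 20978, 6363 and 16242 at 6 h, and Bglap, osteocalcin, had 8201, 24140, 7996 and 18644 against 48174, 9304 and 34254. Animals 8 and 10 were thus high in Col11a1 and Bglap, as in Maob, Gucy1b1 and Scrn1. Ibsp and Acan, of the same list, had another order of animals 8, 9 and 10. Ibsp had 22378, 25030 and 28300, and Acan had 318, 583 and 160. Among the 24 h animals, animal 13 had the highest cartilage and bone level, 2.97, and also the highest Gucy1b1 (2440) and Scrn1 (4060). At 3 h, animal 4 had a cartilage and bone level of 2.88, the highest of the 7 animals compared, with a Gucy1b1 signal of 134, Scrn1 of 193 and Maob of 136, all within the range of the other 3 h animals. Of 20 stroma and vessel markers, 15 had a higher mean and 2 were higher without overlap (10.0%, against 2.91%), with a median of 0.16. These were Fbn1, the microfibril protein fibrillin 1, with 408 to 670 against 2256, 774 and 2233 (1.47; adjusted p = 0.404; 0.61 on another probe set), and Dcn, the proteoglycan decorin (0.72). The part of such tissue in the higher genes was not tested.

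The remaining lists had at most 1 member lower without overlap and no call. Of 28 cell cycle genes, 17 had a lower mean and none was lower without overlap (median -0.07); the proliferation marker Mki67 had 191 to 932 at 3 h and 268 to 981 at 6 h, whereas at 24 h it had 944 to 4548. Tyms, which makes thymidylate for DNA, was the only member without overlap, at 27.5 to 73 against 134 to 190 (1.33; adjusted p = 0.433). Of 15 p53 targets and apoptosis regulators, 9 had a lower mean (median -0.07); Mdm2, the p53 ligase, was the member lower without overlap (-0.58), and Cdkn1a overlapped, with 759, 819, 788 and 1794 against 1168, 343 and 1460. Of 13 genes of cytochrome c oxidase, which H2S inhibits, 7 had a lower mean (median -0.07), and Cox5b was the member lower without overlap (-0.41), named after its value was seen. Of 6 sulfide-handling genes, 5 had a lower mean, and the sulfurtransferase Tst was lower without overlap, with 1142 to 2251 against 496 to 948 (-0.93; adjusted p = 0.592). Glycolysis (median -0.20), interferon (-0.11), circadian clock (0.02) and cytosolic ribosomal protein genes (-0.17) had 1, 0, 0 and 1 members lower without overlap, namely Slc2a1 and Rps9 (-0.38). The interferon-induced Ifi44 (0.75; 4.76% of its list) and the clock-controlled factor Hlf (0.88; 7.14%) were higher without overlap, against 2.91% of all genes. The medians of the cell cycle, p53, cytochrome c oxidase, glycolysis, interferon, clock and olfactory lists each changed sign when some single animal was left out. Nasal gland products (5 measured, median -0.40), olfactory markers (8 measured, 0.12) and red blood cell markers (2 measured, 0.34) had none. Of 9 basal cell markers, 1 was lower and 1 higher without overlap (11.1% each, against 4.41% and 2.91%), and the median of -0.31 turned to 0.03 without animal 9. Dst, which anchors keratins at hemidesmosomes, was the higher one, with 1623, 2144, 2481 and 2472 at 3 h and 3876, 3513 and 3973 at 6 h (0.81; adjusted p = 0.404). The keratin Krt14 was the lower one, with 2618, 2686, 2754 and 15929 at 3 h and 1508, 1072 and 2580 at 6 h (-1.37; adjusted p = 0.733). Without animal 6 the Krt14 difference was -0.73.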

How the data were processed

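The deposited values were array signal intensities per probe set, on a linear scale, from GCOS 1.0 per the submitters' processing notes, with no settings stated. The authors had scaled every array: the mean without the lowest and highest 2% of probe sets was 500 on each. Values were analysed as log2(signal + 16) in R 4.3.3 with limma 3.58.1, with 1 mean per group over the 15 exposed arrays and Benjamini-Hochberg adjustment over all kept probe sets. Of 31099 probe sets, 57 controls were left out, and 18215 were kept because at least 3 of the fitted arrays read them above the array's median. Genes were named from the platform annotation: 20832 probe sets had 1 symbol, 436 several and 9831 none. Where several kept probe sets had 1 gene's symbol, the brightest on average stood for it. On simulated data with 18525 probe sets, 71% of log2 differences of 2 and 96% of those of 4 were recovered. The simulation drew independent noise and planted 100 differences of each size in brighter probe sets. The test also called 8 probe sets that held no planted difference. With so many planted differences the adjustment of p is milder than in the real comparison. These shares therefore do not give the power of the comparison of 6 h against 3 h.

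Every probe set past the threshold was named, with the 12 genes per direction of smallest p among those without overlap, up to 4 members per list and a set list of stress and cell type genes. The gene lists and members were chosen with earlier results of these data known. Alternatives varied the added constant, normalisation, filter, arrays fitted, variance model, RNA integrity and each animal. Animal numbers are unique, so no animals are paired. The number of arrays limits the precision.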

Additional observations from a re-analysis of the deposited data

Results flagged for a closer look

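Among 145 sets of values of the 4 animals at 3 h, 11 had 1 animal far from the other 3 by Dixon's criterion, where chance gives about 1 in 20. Animal 6 was the high one in 5 genes (log2 signal): Krt14 at 13.96 against at most 11.44 in the others, Tst at 11.15 against at most 10.34, Rrp12 at 11.46 against at most 10.42, Wdr12 at 10.02 against at most 9.36 and Cdkn1a at 10.82 against at most 9.71. It was the low one in Ifi44, at 7.50 against at least 8.44. Animal 4 was low in Dusp5 (7.41 against at least 8.15) and high in Kctd12 (12.56 against at most 11.78), and its leukocyte marker level of 1.46 stood above the 0.09 to 0.17 of the others. Heatr1 was low in animal 5, at 8.85 against at least 9.19, and Psmd3 was high in animal 3, at 9.10 against at most 8.95.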

How the results depend on the processing

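The counts of probe sets called by limma, 3 lower and 1 higher, moved with most choices. They were 1 and 0 with 64 added before the logarithm, 0 and 0 with no filter (2206 at an unadjusted p under 0.05), 1 and 0 with all 23 arrays, 1 and 2 with 21 arrays, and 0 and 0 with only the 7 arrays (1137 at an unadjusted p under 0.05). The higher count was 0 with the filter at the 75th percentile, with a trended robust variance and with array weights; the lower count was then 2. Fits limited to arrays with an RNA integrity number hold animals 3 and 4 at 3 h and animals 8 and 10 at 6 h. They therefore also leave out animals 5, 6 and 9. The counts were then 17 and 7, and 24 and 34 with that number as a covariate. Without animals 6 and 14, whose labels name 5 days while their titles give 3 h and 24 h, they were 1 and 1. Leaving out 1 animal gave 0 to 16 lower and 0 to 31 higher, the largest without animal 9. The cause of these shifts was not tested. Atf3 was called in 15 of 21 alternatives and Rsl24d1, Fam81a and Map2k6 each in 5, and none of the 4 changed direction. Of the named genes, 13 of 113 changed sign in some alternative (Cdkn1a, Cxcl1, Ddit3, Dnajb1, Dusp1, Jun, Junb, Mki67, Mtf1, Serpinb2, Slc7a11, Txnrd1 and Zfp36), and 10 of 29 list medians did. Prss22, Maob, Hey1, Scrn1, Bpifb1 and Cd3g passed the threshold without animal 9. The difference in the Gapdh 3'/5' log2 ratio, 0.217, ranged from -0.333 to 0.955 when 1 animal was left out. That in the beta-actin ratio, -0.00818, ranged from -0.564 to 0.416. No paired analysis was possible because each animal has its own number and appears at 1 time only.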
